A study of Drosophila melanogaster with 6 samples.

Results

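The circadian clock genes of *Drosophila* were followed through brain libraries of males with a feminized blood-brain barrier (BBB) and of their controls. The genes are *per*, *tim*, *Clk*, *cyc*, *vri*, *Pdp1*, *cry*, *cwo* and *dbt*, which the annotation lists as *dco*. They were chosen by name, with every transcript of them in the deposited table, and make up 9 of its 13453 genes and 43 of its 28071 transcripts. Males with a feminized BBB (*SPG-GAL4/UAS-traF*) expressed the female form of Transformer in the subperineurial glia, the cells of the tight barrier layer, under the driver *SPG-GAL4*, also called *moody-Gal4*, and their samples are named feminized brains. One set of control males had *SPG-GAL4/+*, the driver without the transgene, and the other had *UAS-traF/+*, the transgene without a driver. All 3 genotypes were in a w1118 background from stocks outcrossed to 1 common stock. There were 2 libraries per genotype, labelled as biological replicates, each from a large pool of dissected brains of adult males a few days after eclosion. The flies lived in a light-dark cycle and were dissected in a narrow window around the middle of the light phase, with all genotypes handled in each sitting. Whole brains were measured, so that fewer cells of a type and less RNA per cell cannot be told apart.

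In the fly clock, the proteins Clock (Clk) and Cycle (cyc) form a dimer that switches on *per*, *tim*, *vri*, *Pdp1* and *cwo*. Period and Timeless accumulate, enter the nucleus and shut the dimer off, and the kinase Doubletime (dbt) phosphorylates Period and thereby sets the pace. Vrille represses *Clk*, whereas a form of Pdp1 activates it, and Clockwork orange (cwo) damps the targets of the dimer. Cryptochrome (cry) is the blue light sensor that leads to the loss of Timeless after light. In light-dark cycles the messages of *tim*, *per* and *vri* are low in the morning, climb through the later day and peak around early night, while those of *Clk* and *cry* peak around dawn. The relative levels of these genes in a sample thus follow the time of day in its cells. The clock runs in a small number of neurons, in many glia and in the photoreceptors.

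The deposited counts summed to between 32839081 and 37608924 per library. *SPG-GAL4/+* replicate 1 stood apart from the other libraries in a trend of counts with gene length. Fits without it are given for part of the results that rest on it. Without that library, edgeR called 240 of 9763 genes between feminized and control males, against 0 of 9777 with all libraries. Levels of the clock genes are given as normalized counts, that is, the counts of all transcripts of a gene scaled to a common library size with the TMM method. Differences were tested over all genes with edgeR's quasi-likelihood test, and a gene was called when its Benjamini-Hochberg adjusted p was below 0.1. The pairwise comparisons of the 3 genotypes share libraries and are given side by side.

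The clock genes were all detected, at levels that spanned a wide range. Scaled for library size and transcript length (CPM per kilobase), *Pdp1* was highest, between 88.3 and 135 in the 6 libraries. It was followed by *cry*, between 47.6 and 62.2, and *dco*, between 37.2 and 46.9, and these neighbours did not overlap. The gene *cyc* lay between 21.3 and 24.4 on the same scale. The levels of *tim* (10.6 to 18.4), *cwo* (10.8 to 12.6) and *per* (9.56 to 12.4) overlapped each other, and *vri* (3.37 to 9.53) and *Clk* (2.49 to 3.002) were lowest, without overlap between them. Reads were counted without regard to strand. The annotation has overlaps of 49 bases between *per* and *dyw* and of 9 bases between *cry* and *vib*, both on opposite strands. The gene CG32371 lies within *Clk* on its own strand.

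None of the 9 clock genes was called different between feminized brains and the pooled controls. EdgeR called 0 of the 9 genes, with a background of 0% of the 9777 genes tested. None of the 9 had an unadjusted p below 0.05, against 4.68% of all genes. DESeq2 also called 0 of the 9, with a background of 0.254%. The smallest unadjusted p values were those of *vri* (log2 fold change -0.82, standard error 0.45) and *tim* (-0.37, standard error 0.21), both with an edgeR adjusted p of 0.999. For the other 7 genes the log2 fold change lay between -0.09 for *cyc* (standard error 0.07) and 0.23 for *Pdp1* (standard error 0.15). The wider standard errors of *vri* and *tim* stood beside a difference between the 2 control genotypes in these genes, given next.

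**Figure D1:**
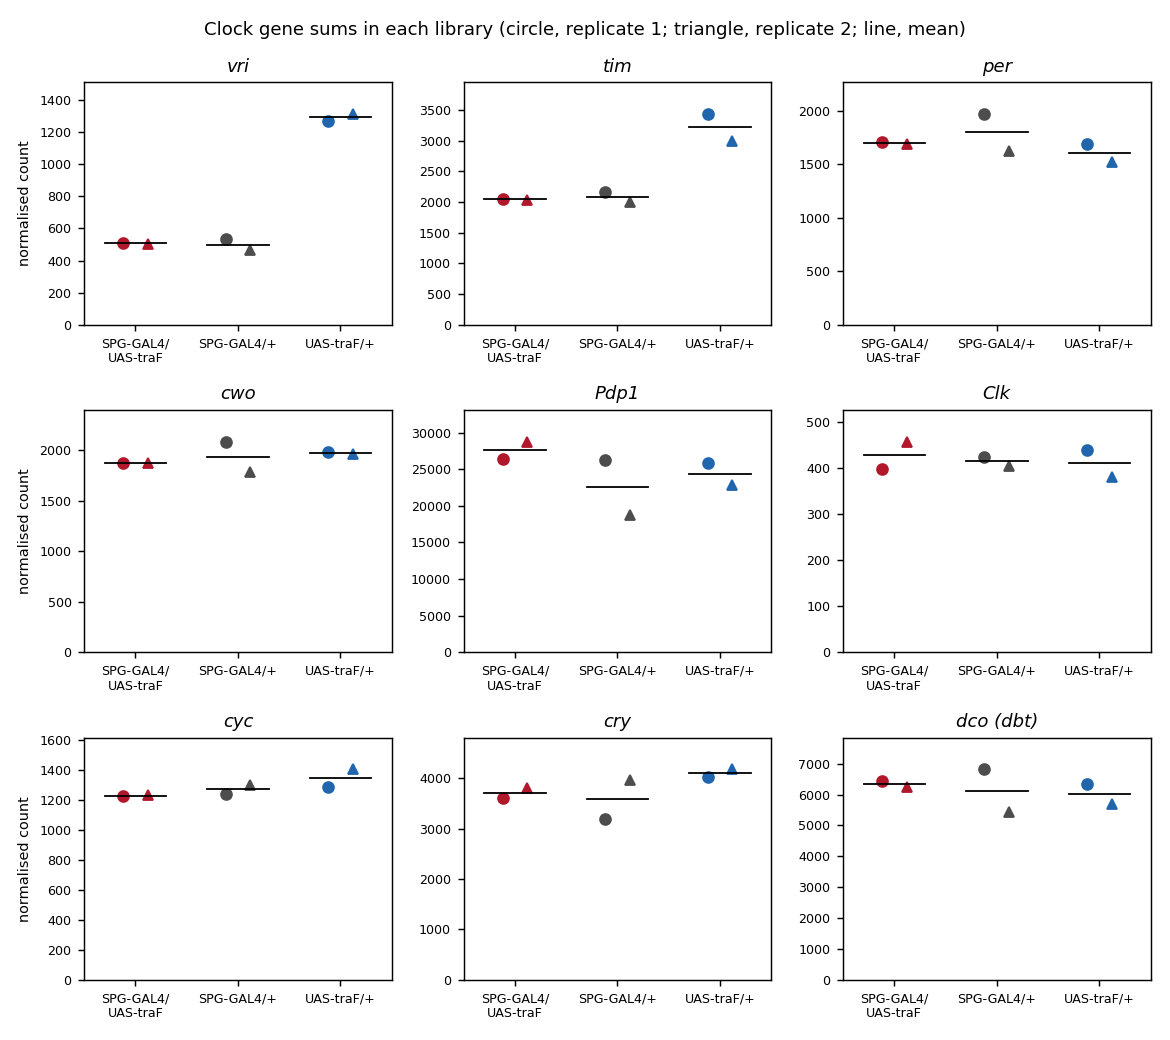
Normalized counts (vertical axes, starting at 0) of the 9 clock genes in the 6 libraries, with the mean of each genotype as a line. The *vri* points lie between 465 and 533 in the 4 libraries that carry *SPG-GAL4* and at 1273 and 1315 in *UAS-traF/+*, the *tim* points show the same order, and the other 7 genes lie at like levels in all 3 genotypes.

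The gene *vri* encodes a bZIP repressor that acts in the second loop of the clock, on *Clk*. Its gene sum was 512 and 501 normalized counts in feminized brains, 533 and 465 in *SPG-GAL4/+* brains and 1273 and 1315 in *UAS-traF/+* brains. The 4 libraries with the driver lay together, and both *UAS-traF/+* libraries lay far above them, 2.57 times higher by the means. Against *UAS-traF/+*, *vri* was lower in feminized brains (log2 fold change -1.35, standard error 0.09, edgeR adjusted p = 0.00567). It was also lower in *SPG-GAL4/+* than in *UAS-traF/+* brains (-1.38, standard error 0.09, edgeR adjusted p = 0.00519). Between feminized and *SPG-GAL4/+* brains, the log2 fold change was 0.02 (standard error 0.09, edgeR adjusted p = 1.00). Without replicate 1 or replicate 2 of the feminized brains, *vri* lost its call against *UAS-traF/+*, with edgeR adjusted p values of 0.194 and 0.160 and log2 fold changes of -1.36 and -1.32.

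The gene *tim* encodes Timeless, the light-sensitive partner of Period. It had 2050 and 2028 normalized counts in feminized brains, 2157 and 1990 in *SPG-GAL4/+* brains and 3433 and 2994 in *UAS-traF/+* brains. The groups were arranged as for *vri*, with no overlap between *UAS-traF/+* and the other 4 libraries. The log2 fold change was -0.63 between *SPG-GAL4/+* and *UAS-traF/+* (standard error 0.09, edgeR adjusted p = 0.0947), and *tim* was called lower in *SPG-GAL4/+*. Against *UAS-traF/+* the log2 fold change in feminized brains was -0.66, with a standard error of 0.09, and missed the threshold (edgeR adjusted p = 0.113). DESeq2 called *tim* in both comparisons, with adjusted p values of 0.000227 for *SPG-GAL4/+* and 0.000232 for feminized brains. The call of *tim* in *SPG-GAL4/+* was lost without either feminized library or without *UAS-traF/+* replicate 1. The feminized libraries enter that comparison only through the shared filter, scaling and estimate of the spread. With a library left out, the log2 fold change of *tim* in it stayed between -0.73 and -0.53.

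These were the only clock genes called in any comparison of gene sums by edgeR. Of the 9 genes, 1 was called between feminized and *UAS-traF/+* brains and 2 between *SPG-GAL4/+* and *UAS-traF/+* brains, with backgrounds of 0.102% and 0.215% of the 9777 genes tested. An unadjusted p below 0.05 was seen for *vri* and *tim* in both, against 7.14% and 7.71% of all genes, and DESeq2 called these genes in both, with backgrounds of 0.425% and 0.946%. Between feminized and *SPG-GAL4/+* brains 0 of the 9 were called, with a background of 0.0102%, and 0 had an unadjusted p below 0.05, against 5.84% of all genes. DESeq2 called 0 clock genes there, with a background of 0.409%. The *UAS-traF/+* libraries lay above the other 4 for *cry* too, by a small margin, and for 11.7% of all genes tested.

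**Figure D2:**
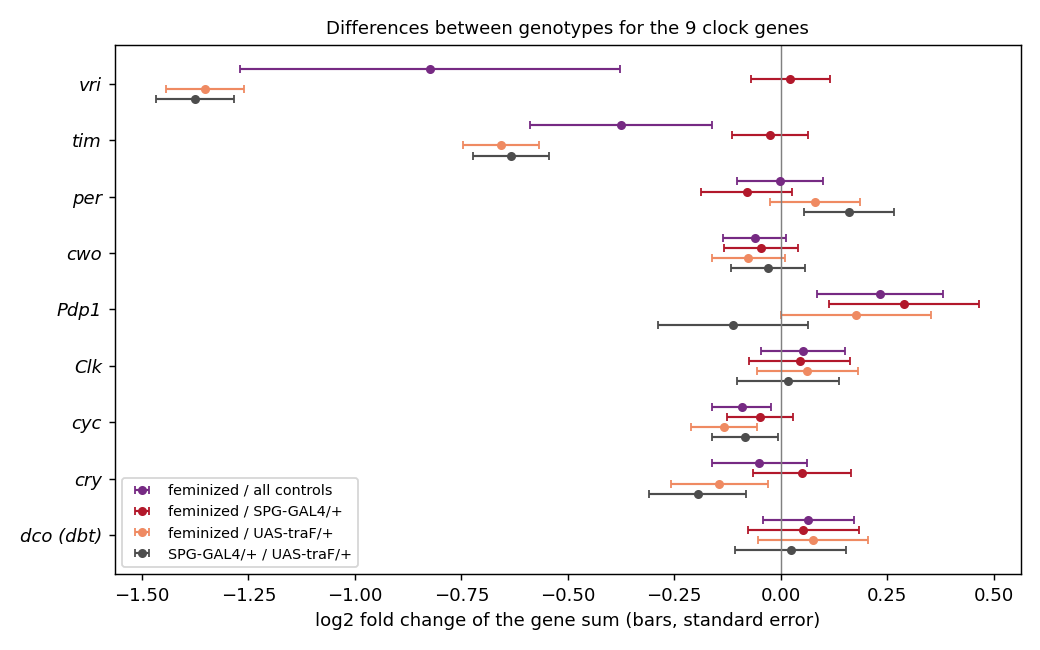
Log2 fold changes of the gene sums with their standard errors (horizontal axis), for feminized brains against all controls and against each control genotype, and for *SPG-GAL4/+* against *UAS-traF/+*. For *vri* and *tim* both comparisons with *UAS-traF/+* lie well below 0 and the comparison of feminized with *SPG-GAL4/+* brains lies at 0.02 and -0.02, and the comparison with all controls lies between them.

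The other direct targets of the Clk and cyc dimer did not share this order. The gene *per* had 1704 and 1693 normalized counts in feminized brains, 1970 and 1623 in *SPG-GAL4/+* brains and 1688 and 1524 in *UAS-traF/+* brains. The *SPG-GAL4/+* libraries spanned both feminized ones and one of *UAS-traF/+*, and the log2 fold change of feminized against *UAS-traF/+* brains was 0.08 (standard error 0.11). The gene *cwo* had 1873 and 1878 normalized counts in feminized brains, 2088 and 1788 in *SPG-GAL4/+* brains and 1988 and 1965 in *UAS-traF/+* brains. Its feminized libraries lay within the range of the *SPG-GAL4/+* libraries, with a log2 fold change of -0.06 against all controls (standard error 0.07). *Pdp1* had 26355 and 28777 normalized counts in feminized brains, 26312 and 18772 in *SPG-GAL4/+* brains and 25898 and 22853 in *UAS-traF/+* brains. Its low value in *SPG-GAL4/+* replicate 2 set the spread, and both feminized libraries lay above all 4 controls, as close as 26355 against 26312.

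The activators and the light sensor were likewise at similar levels in the 3 genotypes. *Clk* had 398 and 457 normalized counts in feminized brains, 424 and 405 in *SPG-GAL4/+* brains and 440 and 379 in *UAS-traF/+* brains. Its partner *cyc*, whose message does not cycle, had 1228 and 1230 in feminized brains, 1242 and 1300 in *SPG-GAL4/+* brains and 1290 and 1406 in *UAS-traF/+* brains. Both feminized libraries of *cyc* lay below all 4 controls, as close to the lowest as 1230 against 1242. Among the 9 genes, *cyc* and *Pdp1* were the 2 whose feminized libraries lay outside the controls, and 13.7% of all genes tested did so.

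The gene *cry* had 3606 and 3812 normalized counts in feminized brains, 3199 and 3963 in *SPG-GAL4/+* brains and 4019 and 4180 in *UAS-traF/+* brains. Its 2 *SPG-GAL4/+* libraries spanned both feminized ones, and the log2 fold change of *SPG-GAL4/+* against *UAS-traF/+* was -0.19 (standard error 0.11, edgeR adjusted p = 0.656). The kinase gene *dco* had 6456 and 6248 normalized counts in feminized brains, 6825 and 5422 in *SPG-GAL4/+* brains and 6356 and 5693 in *UAS-traF/+* brains, and all 3 genotypes overlapped. For *per*, *cwo*, *Pdp1*, *cry* and *dco* the widest difference between replicates was that of the *SPG-GAL4/+* libraries. Without *SPG-GAL4/+* replicate 2, which leaves the library that stood apart as the lone one of its genotype, edgeR called *per* (log2 fold change 0.29) and *cry* (-0.36) between *SPG-GAL4/+* and *UAS-traF/+* brains beside *vri* and *tim*, together with 3856 of 10049 genes. It then also called *cry* (0.22) and *cwo* (-0.15) between feminized and *SPG-GAL4/+* brains, with 2010 genes in all, and without *SPG-GAL4/+* replicate 1 it called *Pdp1* there (0.56), with 318 genes.

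Whether the libraries were matched in clock phase was read from the ratios of the genes within each library, which do not depend on library size. The log2 ratio of *tim* to *Clk* was 2.36 and 2.15 in feminized brains, 2.35 and 2.30 in *SPG-GAL4/+* brains and 2.96 and 2.98 in *UAS-traF/+* brains. That of *vri* to *Clk* was 0.36 and 0.13 in feminized brains, 0.33 and 0.20 in *SPG-GAL4/+* brains and 1.53 and 1.79 in *UAS-traF/+* brains. In both ratios the 4 driver libraries lay together, within 0.22 and 0.23, and both *UAS-traF/+* libraries lay above them, the side of later hours. The other gene with a peak around dawn, *cry*, was itself higher in *UAS-traF/+* (4019 and 4180) than in the driver libraries (at most 3963), the side of earlier hours. The log2 ratio of *tim* to *cry* was -0.23 and -0.48 in *UAS-traF/+* brains and at most -0.57 in the driver libraries. That of *vri* to *cry* was -1.66 and -1.67, and at most -2.58. Phase was not measured apart from these ratios, and its part beside that of genotype was not tested. The log2 ratio of *per* to *Clk* was 2.10 and 1.89 in feminized brains, 2.21 and 2.00 in *SPG-GAL4/+* brains and 1.94 and 2.01 in *UAS-traF/+* brains, so that *per* did not separate the genotypes. The ratios of *cwo* to *Clk* (2.04 to 2.37) and of *Pdp1* to *Clk* (5.53 to 6.05) overlapped between *UAS-traF/+* and the other libraries as well. The ratio of the morning genes *Clk* and *cry* to each other lay between -3.46 and -2.91 in log2 units, with -3.19 and -3.46 in *UAS-traF/+* brains.

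Averaged over *tim*, *per*, *vri*, *Pdp1* and *cwo* against *Clk* and *cry*, the log2 ratio was 1.03 and 0.91 in feminized brains, 1.17 and 0.79 in *SPG-GAL4/+* brains and 1.30 and 1.28 in *UAS-traF/+* brains. The feminized libraries lay within the range of the *SPG-GAL4/+* libraries, and *UAS-traF/+* lay above both. With the most abundant transcript of each gene in place of its sum, the ratio was -1.24 and -0.27 in feminized brains, 0.25 and -0.27 in *SPG-GAL4/+* brains and 0.66 and 0.67 in *UAS-traF/+* brains, so that feminized replicate 1 then lay below all other libraries. For *vri* that transcript is *vri-RA*, which had 1 raw count in feminized replicate 1. With *tim* and *vri* left out, the same mean was 1.87 and 1.77 in feminized brains, 2.03 and 1.58 in *SPG-GAL4/+* brains and 1.74 and 1.70 in *UAS-traF/+* brains, and the *UAS-traF/+* libraries lay inside the range of the others. These are gene sums, and for *Pdp1* they are dominated by 1 of its starts. Among its other starts, 1 followed *vri* and *tim* and another did not (given with the starts). The log2 ratio of *vri* to *tim* was steady in the driver libraries, between -2.10 and -2.001, and was -1.43 and -1.19 in *UAS-traF/+* brains.

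**Figure D3:**
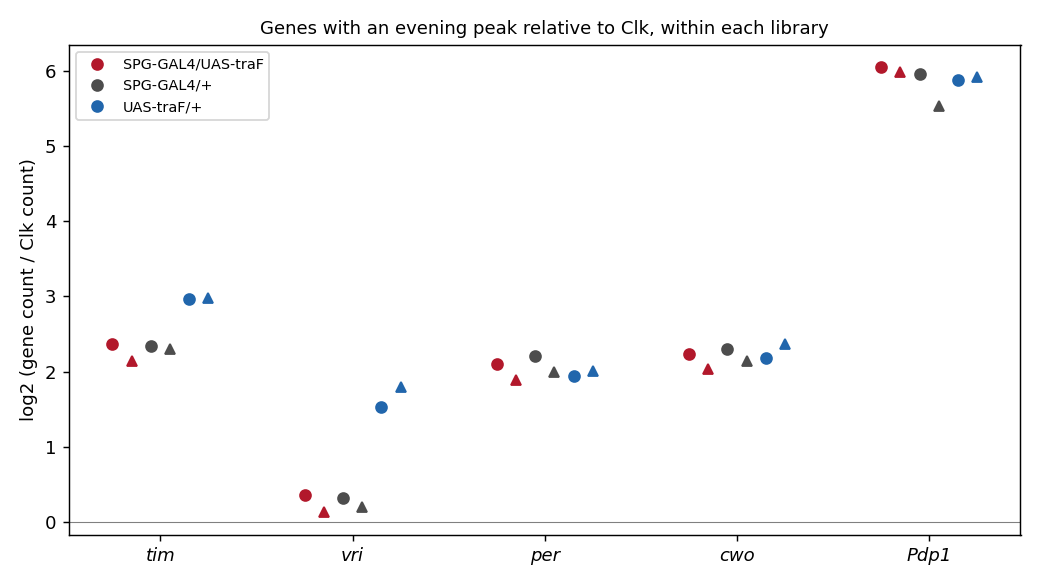
Log2 ratio of the counts of *tim*, *vri*, *per*, *cwo* and *Pdp1* to that of *Clk* within each of the 6 libraries (vertical axis), with circles for replicate 1 and triangles for replicate 2. Both *UAS-traF/+* libraries lie above the other 4 for *tim* (2.96 and 2.98) and *vri* (1.53 and 1.79), and among them for *per* and *Pdp1*.

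As a measure of spread, the standard deviation of the log2 normalized counts over the 6 libraries was 0.71 for *vri* and 0.34 for *tim*. The median of the 9777 genes tested was 0.14. *Clk* (0.10), *cyc* (0.07), *cwo* (0.08), *per* (0.12) and *dco* (0.12) lay below that median, *cry* (0.14) at it, and *Pdp1* (0.22) above it. Within a genotype, *vri* (0.08) and *tim* (0.09) varied less than the median gene (0.13).

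The photoreceptors hold a clock of their own, and markers of the retina were therefore set beside *vri* and *tim*. The sum of 13 retina genes was 8687 and 12835 normalized counts in feminized brains, 8716 and 13333 in *SPG-GAL4/+* brains and 14792 and 13201 in *UAS-traF/+* brains. All 13 were detected and 0 were called in any of the comparisons. In each comparison with *UAS-traF/+*, 1 of the 13 had a log2 fold change above 0, and an unadjusted p below 0.05 was seen for 5 (feminized) and 2 (*SPG-GAL4/+*), against 7.14% and 7.71% of all genes. The sum is carried in large part by the arrestins *Arr1* and *Arr2*, with 4699 normalized counts for *Arr2* in *SPG-GAL4/+* replicate 2. For 4 of the 13, *ninaE*, *Rh6*, *trp* and *trpl*, both *UAS-traF/+* libraries lay above the other 4, as for *vri* and *tim*. *Rh6* did so as closely as 184 against 181, and 11.7% of all genes tested had this order. The channel gene *trp* had 369 and 431 normalized counts in feminized brains, 405 and 495 in *SPG-GAL4/+* brains and 636 and 553 in *UAS-traF/+* brains. The log2 fold changes of feminized against *UAS-traF/+* brains had a median of -0.48, with the rhodopsin *ninaE* at 1179 and 1625 normalized counts in feminized brains, 1406 and 1852 in *SPG-GAL4/+* brains and 2916 and 1930 in *UAS-traF/+* brains. The part of retinal RNA in the difference of *vri* and *tim* was not tested. The summed markers of glia (*repo*, *alrm*, *Eaat1*, *moody*, *Mdr65*) ranged from 85019 to 104733 over the 6 libraries, with *UAS-traF/+* (103073 and 93396) inside that range.

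For *vri*, *tim*, *Pdp1*, *Clk* and *dco* the annotation has several starts, and that of *dco-RE* had 0 counts in every library. Counts were summed over the transcripts that share a start. These sums were formed after the data were seen. The *vri* transcripts that begin at the downstream start (chromosome 2L, position 5305650, plus strand) encode the longer protein of 729 residues. They had 366 and 426 normalized counts in feminized brains, 419 and 332 in *SPG-GAL4/+* brains and 1070 and 1194 in *UAS-traF/+* brains. The upstream start (5288944), whose transcript *vri-RE* encodes 610 residues, had 149 and 76.3 in feminized brains, 103 and 139 in *SPG-GAL4/+* brains and 199 and 123 in *UAS-traF/+* brains. The excess of *vri* in *UAS-traF/+* was thus seen at the downstream start, while the genotypes overlapped at the upstream start.

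Tested over 13991 starts, the downstream *vri* start had log2 fold changes of -1.52 in feminized (standard error 0.15) and -1.59 in *SPG-GAL4/+* brains (standard error 0.16), both against *UAS-traF/+*. Neither passed the threshold in edgeR (adjusted p = 0.306 and 0.184), and DESeq2 called both (adjusted p = 7.28e-09 and 3.04e-10). EdgeR called 0 of the 16 clock gene starts in each comparison with *UAS-traF/+*. The backgrounds were 0.0143% for feminized brains and 0.00715% for *SPG-GAL4/+* brains. At an unadjusted p below 0.05 there were 4 and 5 of the 16 (backgrounds 6.78% and 6.81%), and DESeq2 called 3 and 2 (background 1.34% in each comparison).

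Of the 3 *tim* starts on the minus strand of chromosome 2L, the inner one (3507218) had 1389 and 1433 normalized counts in feminized brains, 1340 and 1368 in *SPG-GAL4/+* brains and 2280 and 2044 in *UAS-traF/+* brains. The outermost (3508119) had 535 and 494 in feminized brains, 734 and 559 in *SPG-GAL4/+* brains and 1010 and 844 in *UAS-traF/+* brains. Both were higher in *UAS-traF/+* brains in each library, without overlap, so that the *tim* difference was not limited to 1 start. The middle start (3507604) was minor, between 37.8 and 137 normalized counts, with both *SPG-GAL4/+* libraries below the other 4.

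*Pdp1* was dominated by the start at 7855548 (chromosome 3L, minus strand), with 24020 and 26292 normalized counts in feminized brains, 23341 and 17001 in *SPG-GAL4/+* brains and 22908 and 20224 in *UAS-traF/+* brains. Its transcripts encode short proteins of 232 to 284 residues. The start at 7833073, used by *Pdp1-RD* and *Pdp1-RJ* with the longest proteins of the gene (647 and 633 residues), had 1175 and 1305 in feminized brains, 1280 and 1095 in *SPG-GAL4/+* brains and 1639 and 1587 in *UAS-traF/+* brains. This start thus followed the order of *vri* and *tim* with no overlap, in contrast to the gene as a whole. Its log2 fold changes against *UAS-traF/+* were -0.38 in feminized (standard error 0.11) and -0.44 in *SPG-GAL4/+* brains (standard error 0.11), and neither passed the threshold in edgeR (adjusted p = 0.627 and 0.578). Of gene sums, 11.7% had both *UAS-traF/+* libraries above the other 4, and the share of starts was not determined. The start at 7828018, used by *Pdp1-RC* and *Pdp1-RL* (570 and 581 residues), did not follow this order. It had 1239 and 1215 in feminized brains, 1126 and 909 in *SPG-GAL4/+* brains and 1212 and 1069 in *UAS-traF/+* brains. The clock form of Pdp1 is known as the epsilon form, a name the annotation does not use, and no transcript was matched to it here.

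**Figure D4:**
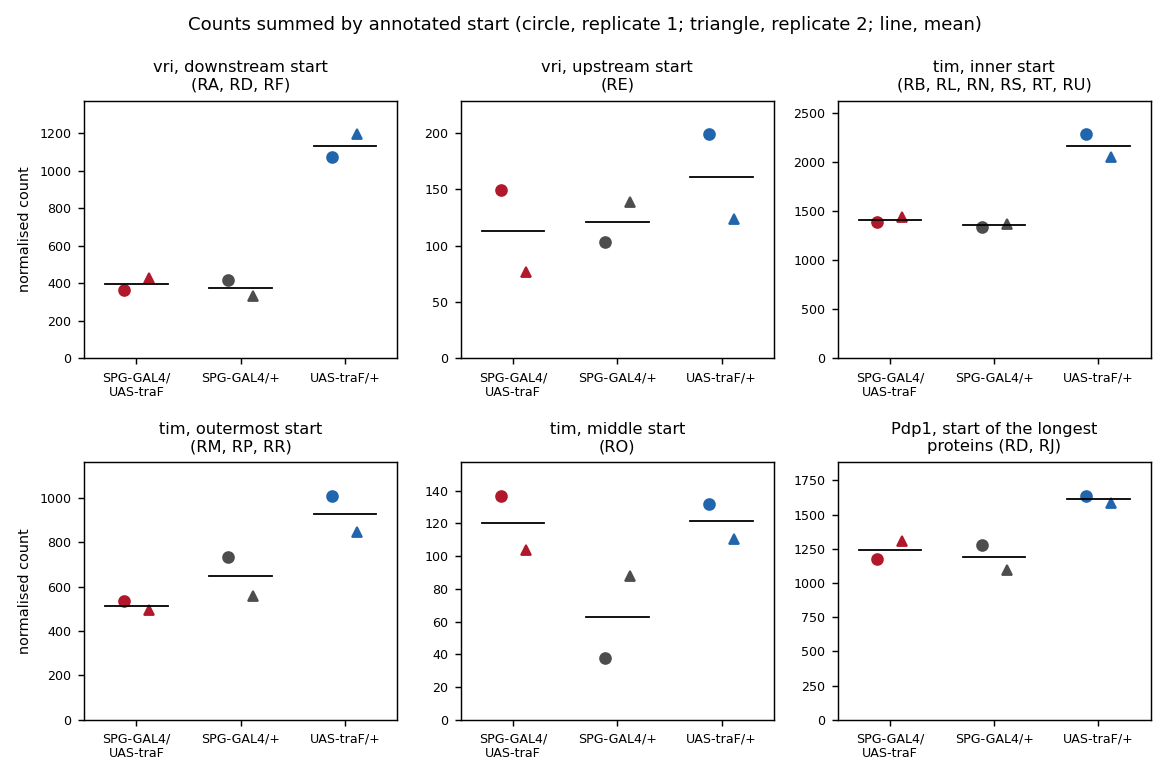
Normalized counts summed over transcripts that share an annotated start (vertical axes, starting at 0), for the 2 starts of *vri*, the 3 starts of *tim* and the *Pdp1* start used by *Pdp1-RD* and *Pdp1-RJ*, by genotype and library. The *UAS-traF/+* libraries lie above the other 4 at the downstream *vri* start (1070 and 1194), at 2 of the *tim* starts and at the *Pdp1* start.

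Within the genes, the share of each transcript was compared. Of the 43 transcripts, 38 passed the filter on low counts and 3 (*tim-RP*, *Pdp1-RO* and *dco-RE*) were at 0 in every library. For *cyc* and *cry* the table has 1 transcript each, which encode 413 and 542 residues. For the other 7 genes, the shares rest on the quantification, which divides reads among overlapping transcripts, so that a transcript is less certain than its gene. Where shares or counts of a transcript are said not to overlap between genotypes, the background over all transcripts was not determined. Between feminized and control males, edgeR called 0 of the 38 transcripts, with a background of 0.0141% of 21208. An unadjusted p below 0.05 was seen for 2, *cwo-RC* and *Pdp1-RI* (background 5.32%), and DESeq2 called 1, *cwo-RC* (background 1.25%). In the pairs edgeR also called 0 of the 38, with backgrounds of 0% for feminized against *SPG-GAL4/+* brains, 0.0613% for feminized against *UAS-traF/+* brains and 0.0377% for *SPG-GAL4/+* against *UAS-traF/+* brains. DESeq2 called 4 and 3 of the 38 in the comparisons of feminized and of *SPG-GAL4/+* brains with *UAS-traF/+* (backgrounds 3.09% and 2.49%), *per-RB*, *tim-RU* and *cwo-RC* in both and *vri-RA* in feminized brains. In the test of transcript usage, which compares shares within a gene, 0 of the 7 genes were called between feminized and control males (background 1.31% of 5109 genes), and 3 (*cwo*, *vri* and *per*) had an unadjusted p below 0.05 (background 9.24%). Against *SPG-GAL4/+* alone 0 of the 7 were called (background 1.49%).

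The 2 transcripts of *per* encode the same Period protein of 1218 residues and differ in 1 intron of 86 bases in the 3′ UTR (BDGP6, chromosome X, 2692391 to 2692476), beyond the end of the coding sequence at 2692276. Removal of this intron, known as dmpi8, is a site of control by temperature and light and bears on the timing of daily activity. Its removal, read as the share of *per-RB*, was 39.6% and 45.6% in feminized brains, 34.4% and 40.1% in *SPG-GAL4/+* brains and 20.7% and 24.1% in *UAS-traF/+* brains. Every library with the driver lay above both *UAS-traF/+* libraries, and the feminized and *SPG-GAL4/+* ranges overlapped. The usage of *per* transcripts was called in both comparisons with *UAS-traF/+*, for feminized (edgeR adjusted p = 0.0181) and for *SPG-GAL4/+* brains (0.0624). Between feminized and *SPG-GAL4/+* brains it was not (0.856), nor against all controls (0.539).

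In counts, *per-RB* had 674 and 770 in feminized brains, 652 and 663 in *SPG-GAL4/+* brains and 350 and 373 in *UAS-traF/+* brains, after normalization. *per-RA*, which keeps the intron, had 1030 and 918 in feminized brains, 1241 and 991 in *SPG-GAL4/+* brains and 1345 and 1173 in *UAS-traF/+* brains. The spliced form was thus about as abundant in both driver genotypes and lower in *UAS-traF/+*, while *per* as a whole was at like levels. The log2 fold change of *per-RB* in feminized against *UAS-traF/+* brains was 1.00 (standard error 0.12, edgeR adjusted p = 0.219, DESeq2 adjusted p = 2.5e-06). The usage call in *SPG-GAL4/+* was lost in 5 of the 6 fits that left out 1 library, with edgeR adjusted p values of 0.0507 to 0.375 over the 6. That in feminized brains was lost without feminized replicate 2 (0.195) or *UAS-traF/+* replicate 1 (0.172).

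The 3 transcripts of *cwo* share start and end and differ in the second exon, which *cwo-RA* holds in a short form of 124 bases, *cwo-RC* in a form longer by 460 bases, and *cwo-RB* lacks. *cwo-RA* encodes 698 residues, and *cwo-RB* and *cwo-RC* encode 621. The share of *cwo-RC* was 3.02% and 3.17% in feminized brains, 6.47% and 6.68% in *SPG-GAL4/+* brains and 14.4% and 12.2% in *UAS-traF/+* brains. The 3 genotypes did not overlap, with the feminized brains lowest, and how many of all transcripts show such an order was not determined. At the 59 and 61 raw counts of *cwo-RC* in the feminized libraries, counting error alone is larger than the difference between them. The main transcript, *cwo-RA*, held 79.8% to 90.5% over the 6 libraries, and *cwo-RB* 4.8% to 11.1%. After normalization *cwo-RC* had 56.6 and 59.5 counts in feminized brains, 130 and 122 in *SPG-GAL4/+* brains and 287 and 244 in *UAS-traF/+* brains.

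Against all controls, the difference of *cwo-RC* was -1.75 on the log2 scale (standard error 0.45), one that edgeR did not call (adjusted p = 0.709) and DESeq2 did (adjusted p = 0.0512). Against *SPG-GAL4/+* alone it was -1.11 (standard error 0.22, edgeR adjusted p = 0.709, DESeq2 adjusted p = 0.0818). Against *UAS-traF/+* it was -2.19 in feminized (standard error 0.22, edgeR adjusted p = 0.172) and -1.08 in *SPG-GAL4/+* brains (standard error 0.21, edgeR adjusted p = 0.395). *cwo-RC* was the 1 clock transcript that DESeq2 called between feminized and *SPG-GAL4/+* brains, with a background of 1.3% of the transcripts it tested.

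The usage of *cwo* transcripts was called for feminized (edgeR adjusted p = 0.00588) and *SPG-GAL4/+* brains (0.0638) against *UAS-traF/+*. Against *SPG-GAL4/+* alone it was not called in feminized brains (0.216), nor against all controls pooled (0.187), where leaving out *SPG-GAL4/+* replicate 1 or replicate 2 gave calls (0.0731 and 0.0673). The call in *SPG-GAL4/+* was lost in 5 of 6 fits that left out 1 library (0.0752 to 0.428 over the 6), and that in feminized brains without *UAS-traF/+* replicate 1 (0.129). *cwo* and *per* were the 2 of the 7 genes called in either comparison with *UAS-traF/+*. The backgrounds were 5.19% of 5109 genes for feminized brains and 4.66% for *SPG-GAL4/+* brains.

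**Figure D5:**
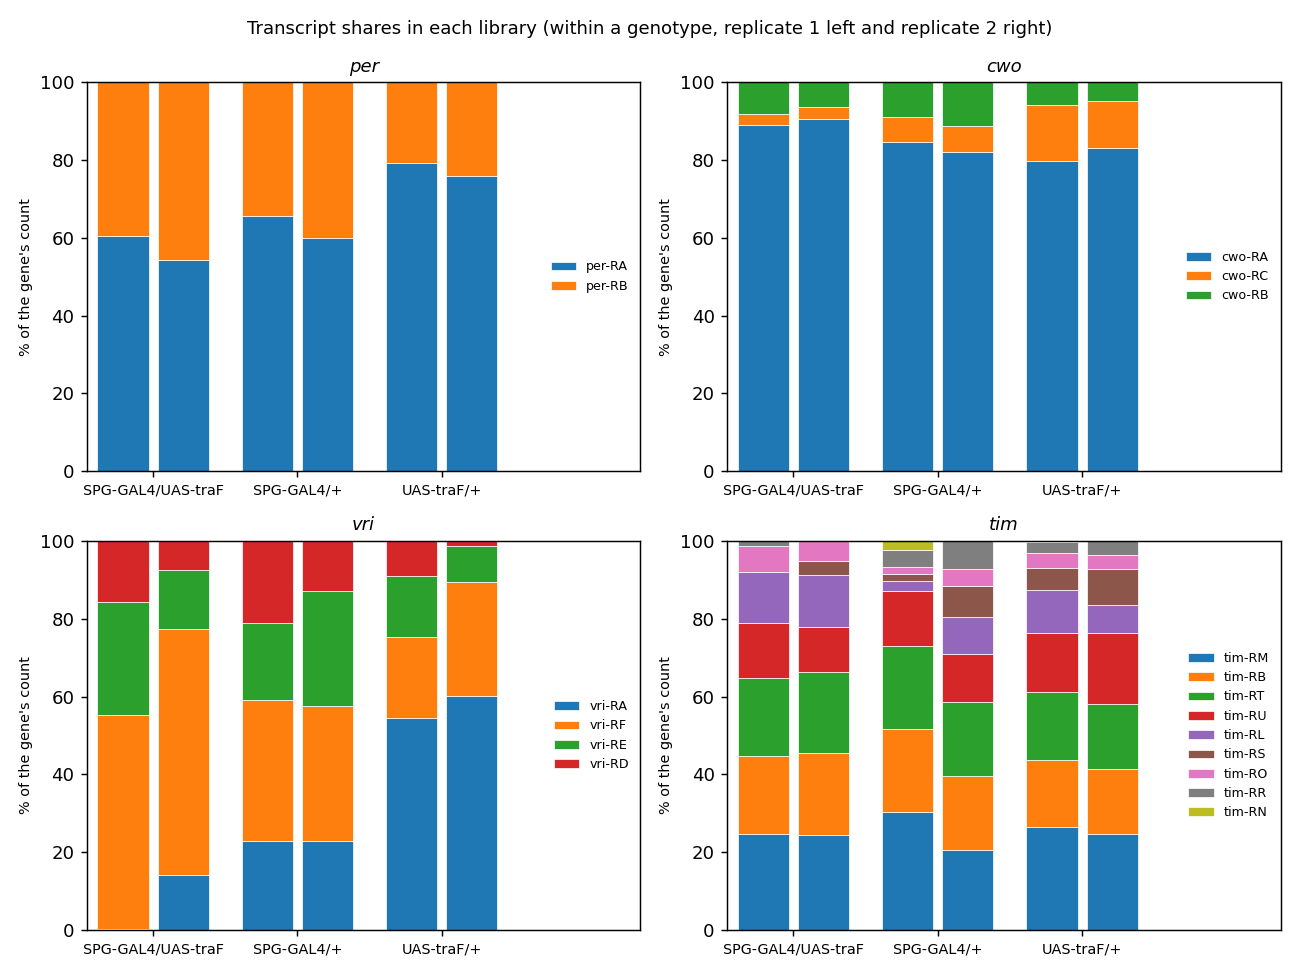
Share of each transcript in its gene (vertical axis, percent of the gene's count) for *per*, *cwo*, *vri* and *tim*, with 1 bar per library and replicate 1 to the left within a genotype. The share of *per-RB* is 20.7% and 24.1% in *UAS-traF/+* and at least 34.4% in the other libraries, and that of *cwo-RC* is near 3% in feminized brains and 14.4% and 12.2% in *UAS-traF/+*.

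The transcripts of *vri* that begin at the downstream start differ in their 3′ ends. *vri-RA*, with the middle end, held 0.2% and 14.0% of the gene in feminized brains, 22.8% in both libraries of *SPG-GAL4/+* brains and 54.4% and 60.2% in *UAS-traF/+* brains. *vri-RF*, with the longest 3′ UTR, held 55.1% and 63.4% in feminized brains, 36.4% and 34.7% in *SPG-GAL4/+* brains and 20.9% and 29.3% in *UAS-traF/+* brains. The order of the shares was opposite for the 2 ends, with no overlap between genotypes in either. Shares of 1 gene depend on each other, since a lower share of 1 transcript raises those of the others. *vri-RA* had 1 raw count in feminized replicate 1 and 72 in feminized replicate 2. In normalized counts *vri-RF* was 282 and 317 in feminized brains, 186 and 165 in *SPG-GAL4/+* brains and 267 and 391 in *UAS-traF/+* brains, so that feminized and *UAS-traF/+* brains overlapped and *SPG-GAL4/+* brains were lowest. The usage test of *vri* did not pass in any comparison, with edgeR adjusted p values of 0.514 against all controls and 0.153 for feminized against *UAS-traF/+* brains. *vri-RD*, with the shortest end, held between 1.1% and 21.1%, with wide differences between replicates.

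The transcripts of *tim* are known to differ with temperature by the introns they keep. *tim-RU* keeps the last intron (chromosome 2L, 3494622 to 3495479, 858 bases), which is the feature of the form called *tim*-cold. It held 14.4% and 11.5% of the gene in feminized brains, 14.2% and 12.4% in *SPG-GAL4/+* brains and 15.4% and 18.2% in *UAS-traF/+* brains. The *UAS-traF/+* libraries were above the other 4, as close as 15.4% against 14.4%. *tim-RM* and *tim-RS* keep an intron of 237 bases (3499764 to 3500000). Together they held 24.8% and 27.9% in feminized brains, 32.1% and 28.7% in *SPG-GAL4/+* brains and 32.1% and 34.0% in *UAS-traF/+* brains. Both feminized libraries were lower than the 4 controls, as close as 27.9% against 28.7%. *tim-RS* alone ranged from 0 to 283 raw counts over the 6 libraries, with 0 and 73 in feminized brains. The transcripts that end early, *tim-RN* and *tim-RO*, together held between 3.7% and 6.6% in all libraries.

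*tim-RB* and *tim-RT* have the same exons and differ in the annotated start codon, which gives proteins of 1398 and 1421 residues, the short and the long form of Timeless. Their counts are equal in each library, so the data do not separate them. Together they held 40.0% and 42.1% in feminized brains, 42.6% and 38.1% in *SPG-GAL4/+* brains and 34.6% and 33.4% in *UAS-traF/+* brains. This share was lower in both *UAS-traF/+* libraries than in the other 4, yet the usage of *tim* was not called in any comparison, with an edgeR adjusted p of 0.763 for feminized and 1.00 for *SPG-GAL4/+* brains against *UAS-traF/+*. In normalized counts *tim-RU* had 294 and 232 in feminized brains, 294 and 251 in *SPG-GAL4/+* brains and 530 and 553 in *UAS-traF/+* brains. Its log2 fold changes against *UAS-traF/+* were -1.04 in feminized (standard error 0.18, edgeR adjusted p = 0.322, DESeq2 adjusted p = 0.00528) and -0.99 in *SPG-GAL4/+* brains (standard error 0.18, edgeR adjusted p = 0.379, DESeq2 adjusted p = 0.0112). The minor transcripts *tim-RL* and *tim-RR* held at most 13.4% and 7.1% and varied between replicates.

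*Pdp1* and *dco* had steady main transcripts. *Pdp1-RP*, the main transcript of *Pdp1* with 270 residues, held between 70.9% and 73.1% in all 6 libraries. *Pdp1-RB* (4.7% to 7.7%) and *Pdp1-RN* (6.5% to 8.2%) followed, and the other 10 held less than 5% each. Among these, *Pdp1-RI* had 306 and 312 normalized counts in feminized brains, 166 and 178 in *SPG-GAL4/+* brains and 241 and 177 in *UAS-traF/+* brains, above all controls. The difference was 0.70 on the log2 scale (standard error 0.19, edgeR adjusted p = 0.709), and DESeq2 did not call it either. *dco-RD* held between 91.7% and 92.7% of *dco*, *dco-RC* between 5.2% and 6.2%, the others at most 2.4% each, and all *dco* transcripts encode the same 440 residues.

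*Clk-RA*, which encodes 1023 residues, held 74.7% and 87.4% of *Clk* in feminized brains, 84.8% and 84.2% in *SPG-GAL4/+* brains and 82.1% and 78.9% in *UAS-traF/+* brains. *Clk-RD* held 6.7% to 12.5%, and *Clk-RF* was at 0 except in *SPG-GAL4/+* replicate 2, with 7.4%. *Clk-RH*, from an inner start (chromosome 3L, 7767230), had 50.8 and 18.5 normalized counts in feminized brains, 12.0 and 6.7 in *SPG-GAL4/+* brains and 43.7 and 45.6 in *UAS-traF/+* brains. It was lowest in both *SPG-GAL4/+* libraries, and no comparison passed the threshold (edgeR adjusted p = 0.596 for *SPG-GAL4/+* against *UAS-traF/+*).

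Genes that act on the core clock or carry its output were set beside the 9. Of the 51 listed genes, edgeR called 0 in each of the 4 comparisons, and DESeq2 also called 0. At an unadjusted p below 0.05 there were 2 for feminized against all controls, 3 against *SPG-GAL4/+*, 2 against *UAS-traF/+* and 2 for *SPG-GAL4/+* against *UAS-traF/+*, where the backgrounds over all genes were 4.68%, 5.84%, 7.14% and 7.71%. Among 16 genes for the modification and turnover of clock proteins, log2 fold changes against all controls lay between -0.08 and 0.20, with a median of 0.02 against -0.01 for all genes tested. The smallest unadjusted p values in this group over the 4 comparisons belonged to *CkIIalpha*, a kinase of Period and Timeless, with a log2 fold change of -0.24 in *SPG-GAL4/+* against *UAS-traF/+* brains, to *CkIalpha* (0.20 in feminized brains against all controls) and to *ctrip* (0.31 in *SPG-GAL4/+* against *UAS-traF/+* brains). Among 8 co-factors of clock gene transcription and translation the median against all controls was -0.01, with *brm* at -0.20 in feminized against *SPG-GAL4/+* brains and *lark* at 0.17 and *Atx2* at 0.21 in *SPG-GAL4/+* against *UAS-traF/+* brains. For light input, *Rh7*, a rhodopsin of the brain, had a log2 fold change of -0.36 in feminized against *SPG-GAL4/+* brains. *norpA* had 0.21 in feminized against *UAS-traF/+* brains, and *qsm* had 27.4 to 40.4 normalized counts in the 6 libraries. None of these differences was called.

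The peptides of clock neurons and their receptors (12 genes) had a median log2 fold change of -0.02 in feminized brains against all controls. *Dh44*, the peptide of an output pathway for rest and activity rhythms, had 18253 and 17543 normalized counts in feminized brains, 15762 and 13919 in *SPG-GAL4/+* brains and 15032 and 14223 in *UAS-traF/+* brains. Both feminized libraries lay above all controls, and the log2 fold change of 0.28 (standard error 0.09) was not called (edgeR adjusted p = 0.898). *CCHa1* had 555 and 564 in feminized brains, 585 and 542 in *SPG-GAL4/+* brains and 475 and 465 in *UAS-traF/+* brains, lower in *UAS-traF/+* than in the other 4 (log2 fold change of *SPG-GAL4/+* against *UAS-traF/+* 0.26, edgeR adjusted p = 0.569). *Dh31-R*, a peptide receptor, had a log2 fold change of -0.14 in feminized brains against all controls, which was not called. *Pdf*, the main peptide of the clock neurons, had 10786 and 11839 in feminized brains, 9317 and 14560 in *SPG-GAL4/+* brains and 12057 and 13525 in *UAS-traF/+* brains, with the widest gap between the 2 *SPG-GAL4/+* libraries.

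The 12 genes of membrane excitability, which include the channel *na* and its partners, had 0 of 12 log2 fold changes above 0 in feminized against *SPG-GAL4/+* brains (median -0.19) and 12 of 12 above 0 in *SPG-GAL4/+* against *UAS-traF/+* brains (median 0.23). The medians over all genes tested were -0.009 and 0.005 in these comparisons. The 2 comparisons share the *SPG-GAL4/+* libraries. The sum of the 12 genes was 187835 and 180440 in feminized brains, 268723 and 179331 in *SPG-GAL4/+* brains and 193185 and 186429 in *UAS-traF/+* brains. It was highest in *SPG-GAL4/+* replicate 1, the library that stood apart, and lowest in replicate 2 of the same genotype. The directions and medians of this list are not given without replicate 1. *unc80* (-0.45), *qvr* (-0.41) and *unc79* (-0.34) had the smallest unadjusted p values of this list, all in feminized against *SPG-GAL4/+* brains and none called. For these 3 genes both *SPG-GAL4/+* libraries lay above both feminized ones, with *unc80* at 19877 and 19417 normalized counts in feminized brains and 31197 and 22649 in *SPG-GAL4/+* brains.

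Among 7948 genes with a mean of at least 100 counts, the patterns most like that of *tim* over the 6 libraries were those of *oys* (Pearson r = 0.991), CG31300 (0.990) and *Nf-YB* (0.990). For CG31300 this meant 472 and 449 normalized counts in feminized brains, 470 and 430 in *SPG-GAL4/+* brains and 683 and 643 in *UAS-traF/+* brains. The 6 libraries fall into 2 levels in this pattern, and 76 genes had an r above 0.9, so the likeness is to a step between *UAS-traF/+* and the rest. The patterns most like that of *Clk* were those of *kibra* (0.962), *lcs* (0.958, with 0.96 normalized counts in feminized replicate 1) and *Ino80* (0.949).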

How the data were processed

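The authors quantified paired-end reads of poly-A selected, unstranded libraries with Kallisto and deposited the unnormalized estimated counts of each transcript. The Kallisto version and the reference release are not given in the sources used here. For the tests the counts were taken as whole numbers, with rounding. The authors' own tests used DESeq2. All 6 columns were used. Transcripts were assigned to genes with Ensembl release 115 of BDGP6.54, which held 28061 of the 28071 identifiers, and counts were summed per gene. In R 4.3.3, edgeR 4.0.16 (TMM, default filter on low counts, quasi-likelihood test, Benjamini-Hochberg, threshold 0.1) compared 2 feminized with 4 control libraries, and a fit of 3 genotypes gave the pairs. Transcript usage was tested with diffSpliceDGE. DESeq2 1.42.0, other filters, size factors, a replicate block, removal of a length trend and leaving out each library were alternatives. Fits were tested on simulated data, where the usage test also made some false calls. Members, lists and the naming rule (transcripts with 10 or more counts on average and at least 5% of their gene, listed genes called or with the 3 smallest p values per list) were chosen with earlier results of these data known. *Pdp1-RI*, the start sums, *ninaE*, *trp*, *trpl*, *Rh6*, *Arr1*, *Arr2*, *Pdf* and the summed markers were named after their values were seen. For transcripts of few counts, counting error is not small beside the spread between libraries. Sequences and promoter motifs were not analysed here.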

Additional observations from a re-analysis of the deposited data

How the results depend on the processing

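Of gene sums, 0 clock genes were called between feminized and control males by edgeR as reported and with DESeq2, other size factors, an omitted filter, a floor of 10 counts per library, a threshold of 0.05, a fit of 3 genotypes, the length trend removed and each library left out. For feminized against *UAS-traF/+* males the count of called clock genes was 1, and it was 2 with DESeq2, 2 with the replicate block and 2 with the length trend removed, *tim* being the gene gained, and 0 to 2 when a library was left out. For *SPG-GAL4/+* against *UAS-traF/+* it was 2, and 1 to 4 when a library was left out. For feminized against *SPG-GAL4/+* it was 0, and 0 to 2 when a library was left out. The log2 fold changes of *vri* stayed between -1.37 and -1.32 (feminized) and between -1.47 and -1.28 (*SPG-GAL4/+*) against *UAS-traF/+* with a library left out. Those of *tim* stayed between -0.75 and -0.55 and between -0.73 and -0.53.

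Transcript usage called 2 clock genes between feminized and control males in the fit of 3 genotypes, and 0 to 1 when a library was left out. The ranges with a library left out were 0 to 1 against *SPG-GAL4/+*, 0 to 2 for feminized and 0 to 3 for *SPG-GAL4/+* against *UAS-traF/+*. Of single transcripts, DESeq2 called 1 between feminized and control males, 1 against *SPG-GAL4/+*, 4 against *UAS-traF/+* and 3 between the controls, where edgeR called 0, and 1 for feminized against *UAS-traF/+* with the length trend removed. Of starts, DESeq2 called 3 and 2 in the comparisons of feminized and *SPG-GAL4/+* with *UAS-traF/+*, the length trend removed gave 1 in the second, and leaving out a library gave 0 to 5. The mean ratio of evening to morning genes differed by -0.17 between feminized and control males, and by -1.09 with the most abundant transcript of each gene, which for *vri* is *vri-RA* with 1 raw count in feminized replicate 1.

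Directions turned for small differences that were not called. For *per* against all controls (-0.0018), the values were 0.0048 with DESeq2, 0.014 with no filter, 0.0029 with the replicate block, 0.00051 in the fit of 3 genotypes, 0.0036 with the length trend removed and -0.052 to 0.081 with a library left out. With the length trend removed, *tim* was 0.033 and *cwo* 0.011 in feminized against *SPG-GAL4/+*, and *Clk* was -0.077 and *dco* -0.075 in *SPG-GAL4/+* against *UAS-traF/+*. With a library left out, *Clk* ranged from -0.033 to 0.16 against all controls, from -0.045 to 0.14 (feminized against *SPG-GAL4/+*), from -0.038 to 0.18 (feminized against *UAS-traF/+*) and from -0.089 to 0.12 (*SPG-GAL4/+* against *UAS-traF/+*). For feminized against *SPG-GAL4/+* the ranges were -0.21 to 0.069 for *per*, -0.078 to 0.039 for *tim*, -0.071 to 0.13 for *vri*, -0.092 to 0.22 for *cry*, -0.15 to 0.073 for *cwo* and -0.10 to 0.23 for *dco*. For *SPG-GAL4/+* against *UAS-traF/+* they were -0.37 to 0.11 for *Pdp1*, -0.14 to 0.077 for *cwo* and -0.14 to 0.18 for *dco*.

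The main fits did not pair the samples by replicate number. The correlations given next rest on 2 libraries per genotype and cannot exclude a pairing. Same-numbered libraries deviated from their genotype means with correlations of 0.02 (feminized and *SPG-GAL4/+*), -0.16 (feminized and *UAS-traF/+*) and 0.24 (*SPG-GAL4/+* and *UAS-traF/+*) over genes. With the replicate block, 0 clock genes were called for feminized against control males, 2 against *UAS-traF/+* and 2 for *SPG-GAL4/+* against *UAS-traF/+*. With 2 libraries per genotype, the differences of *tim* lay at the limit of what was called, and this limit depends on the spread of each gene.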
